A study of Mus musculus with 12 samples.

Results

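The homeobox genes Meox2, Meox1, Barx1, Barx2 and Emx2, the T-box gene Tbx22 and the coactivator gene Mn1 form a set of 7 transcriptional regulators that earlier work and earlier results of these libraries place in the posterior palate. They were selected by gene symbol, and all 7 were found among the 24391 symbols of the count data and passed the expression filter. The libraries came from the palatal shelves of C57BL/6 mice at E13.5, before the shelves meet to close the oral cavity off from the nose. Shelves were divided into an anterior and a posterior portion, and RNA was sequenced from tamoxifen-treated mice and from controls. Tamoxifen modulates oestrogen receptors, and the series is titled for cleft palate caused by the drug. The 4 groups of 3 libraries are called anterior control, anterior tamoxifen, posterior control and posterior tamoxifen. No transgene or other treatment is named in the labels, and they do not state the dose, the timing, the vehicle or the number of embryos in a library. The labels also do not say whether the 3 libraries of a group came from separate litters, so p-values measure only the spread between these samples.

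The mammalian palate forms from shelves that grow out, elevate and fuse, and its front and back portions express different regulators. The front portion expresses Shox2 and Msx1 and becomes the bony hard palate, whereas Meox2, Tbx22, Barx1 and Mn1 are known for expression toward the back, where the muscular soft palate arises. Tbx22 is the gene of X-linked cleft palate with ankyloglossia, mice without Mn1 or Meox2 can have cleft palate, and Mn1 acts upstream of Tbx22 in the posterior shelf. Meox1 and Meox2 are best known from somites and muscle precursors, Barx1 from the molar region and the stomach, Barx2 from muscle and epithelia, and Emx2 from the forebrain and the urogenital tract.

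Total counts ranged from 39.4 to 73.0 M per library, and the next highest total was 50.2 M. Levels are given as CPM, counts put on a common library size after scaling by the trimmed mean of M-values (TMM). Shox2 marked the portions as labelled, with 332 ± 27.6 CPM in anterior control and 18.7 ± 1.89 CPM in posterior control libraries (mean ± SD, n = 3 each). Summed over 10 palatal mesenchyme genes, anterior controls had 9862 to 10198 CPM and posterior controls 15814 to 17434 CPM. The tamoxifen libraries had 9324 to 11935 CPM anteriorly and 12899 to 19175 CPM posteriorly. This sum was thus higher posteriorly in each condition, without overlap. It mostly reflects collagen genes, Col1a1 (means of 3828 CPM in anterior and 8335 CPM in posterior controls) and Col3a1 (3046 and 4530 CPM). Prrx1 (753 and 404 CPM) and Osr2 (224 and 152 CPM) were lower posteriorly, so the sum does not measure the amount of mesenchyme. The skeletal muscle list (22 genes in the files) summed to between 20.3 and 48.2 CPM in anterior control, 15.4 and 33.8 in anterior tamoxifen, 961 and 1109 in posterior control, and 1199 and 1625 CPM in posterior tamoxifen libraries. The posterior portion thus held far more muscle transcript than the anterior. Under tamoxifen the posterior muscle sum did not overlap with that of the controls, as was so for 48.0% of all single genes tested. Cartilage genes (15) were also higher posteriorly, at 2971 to 3242 against 929 to 988 CPM in controls, and epithelial genes (18) were lower, at 886 to 963 against 1442 to 1760 CPM. In bulk tissue, fewer cells of a type and less RNA per cell cannot be told apart.

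Promoter sequence was at hand for 4 of the 7 genes in RefSeq on build GRCm38.p6. It is shown because these genes share a posterior excess and their windows differ widely in base composition. Each line gives the 250 bases before an annotated start on the plus strand, 5′ to 3′. Capitals mark matches, on either strand, to the promoter element TATAAA, the element CCAAT, the GC box motif GGGCGG, the homeodomain core motif TAATTA or the T-box core motif GGTGTGA.
Meox2, chr12:37108290-37108539: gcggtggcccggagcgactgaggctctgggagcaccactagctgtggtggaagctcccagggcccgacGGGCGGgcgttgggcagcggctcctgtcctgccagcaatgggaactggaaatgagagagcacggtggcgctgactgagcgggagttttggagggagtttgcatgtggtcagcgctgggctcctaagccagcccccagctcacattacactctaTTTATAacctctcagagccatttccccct
Tbx22, the first of 3 listed starts, chrX:107667714-107667963: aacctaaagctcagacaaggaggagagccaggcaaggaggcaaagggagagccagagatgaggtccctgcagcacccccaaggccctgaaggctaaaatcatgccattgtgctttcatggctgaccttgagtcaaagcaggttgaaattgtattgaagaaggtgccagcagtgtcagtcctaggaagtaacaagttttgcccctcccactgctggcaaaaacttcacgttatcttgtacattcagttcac
Barx1, chr13:48662786-48663035: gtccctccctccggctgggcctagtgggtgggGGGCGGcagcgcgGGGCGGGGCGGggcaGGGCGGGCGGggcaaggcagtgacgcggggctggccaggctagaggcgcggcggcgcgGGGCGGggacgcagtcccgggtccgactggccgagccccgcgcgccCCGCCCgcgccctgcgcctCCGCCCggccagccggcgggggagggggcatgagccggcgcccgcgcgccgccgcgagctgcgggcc
Emx2, chr19:59458440-59458689: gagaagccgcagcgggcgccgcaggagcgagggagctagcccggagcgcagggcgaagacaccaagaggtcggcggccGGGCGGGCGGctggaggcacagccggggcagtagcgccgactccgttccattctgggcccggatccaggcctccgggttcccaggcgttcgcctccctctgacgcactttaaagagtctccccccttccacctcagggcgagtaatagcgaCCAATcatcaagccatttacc

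The Barx1 window was the most GC-rich of the 4, at 85.6% G and C, and 99.9% of the 32851 promoters in the table had a lower value (median 52.4%). The windows of Emx2 and Meox2 held 67.2% and 62.0%, and that of Tbx22 49.6%. Barx1 had 8 matches to the GC box, some of them overlapping, Emx2 had 2 and Meox2 had 1, against at least 1 match in 32.7% of all promoters. A TATAAA match lay 29 bases before the Meox2 start, on the opposite strand in the line above, and 12.4% of all promoters held such a match. CCAAT lay 21 bases before the Emx2 start and is found in 33.8% of promoters. The first Tbx22 window held none of these letters, and its second window held CCAAT, 71 bases before the start. No window of the 4 genes held TAATTA or GGTGTGA, which occur in 4.84% and 3.33% of promoters. The E-box letters CANNTG, not capitalised, had 1 match in the window of Meox2, none in those of Barx1, Emx2 and the first Tbx22 start, 3 in the second and 1 in the third Tbx22 window, and at least 1 in 66.2% of all promoters. These matches describe the letters of the windows and no factor binding was measured.

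All 7 genes were higher in the posterior than in the anterior palate, in controls and under tamoxifen. Meox2 had the largest excess of the 7 in controls, 19.3-fold, followed by Emx2 (3.75 on the log2 scale) and Tbx22 (6.92-fold), and Mn1 had the smallest, 1.63-fold. Under tamoxifen the order began with Emx2 (25.9-fold) and Meox2 (14.8-fold) and again ended with Mn1 (1.54-fold). In controls 13.1% of the 15958 genes tested were called higher posteriorly (23.3% called in either direction), and under tamoxifen 10.2% (17.8% in either direction, 7.60% lower), by edgeR's quasi-likelihood test at a Benjamini-Hochberg adjusted p under 0.05. The median log2 fold change of the 7 was 1.82 in controls and 2.50 under tamoxifen, against -0.02 over all genes in each. No member had overlapping anterior and posterior libraries in either condition, whereas 41.2% of all genes in controls and 33.1% under tamoxifen were without overlap. The genes were chosen for posterior expression with earlier results of these libraries known, so the shared direction is a description.

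**Figure D1:**
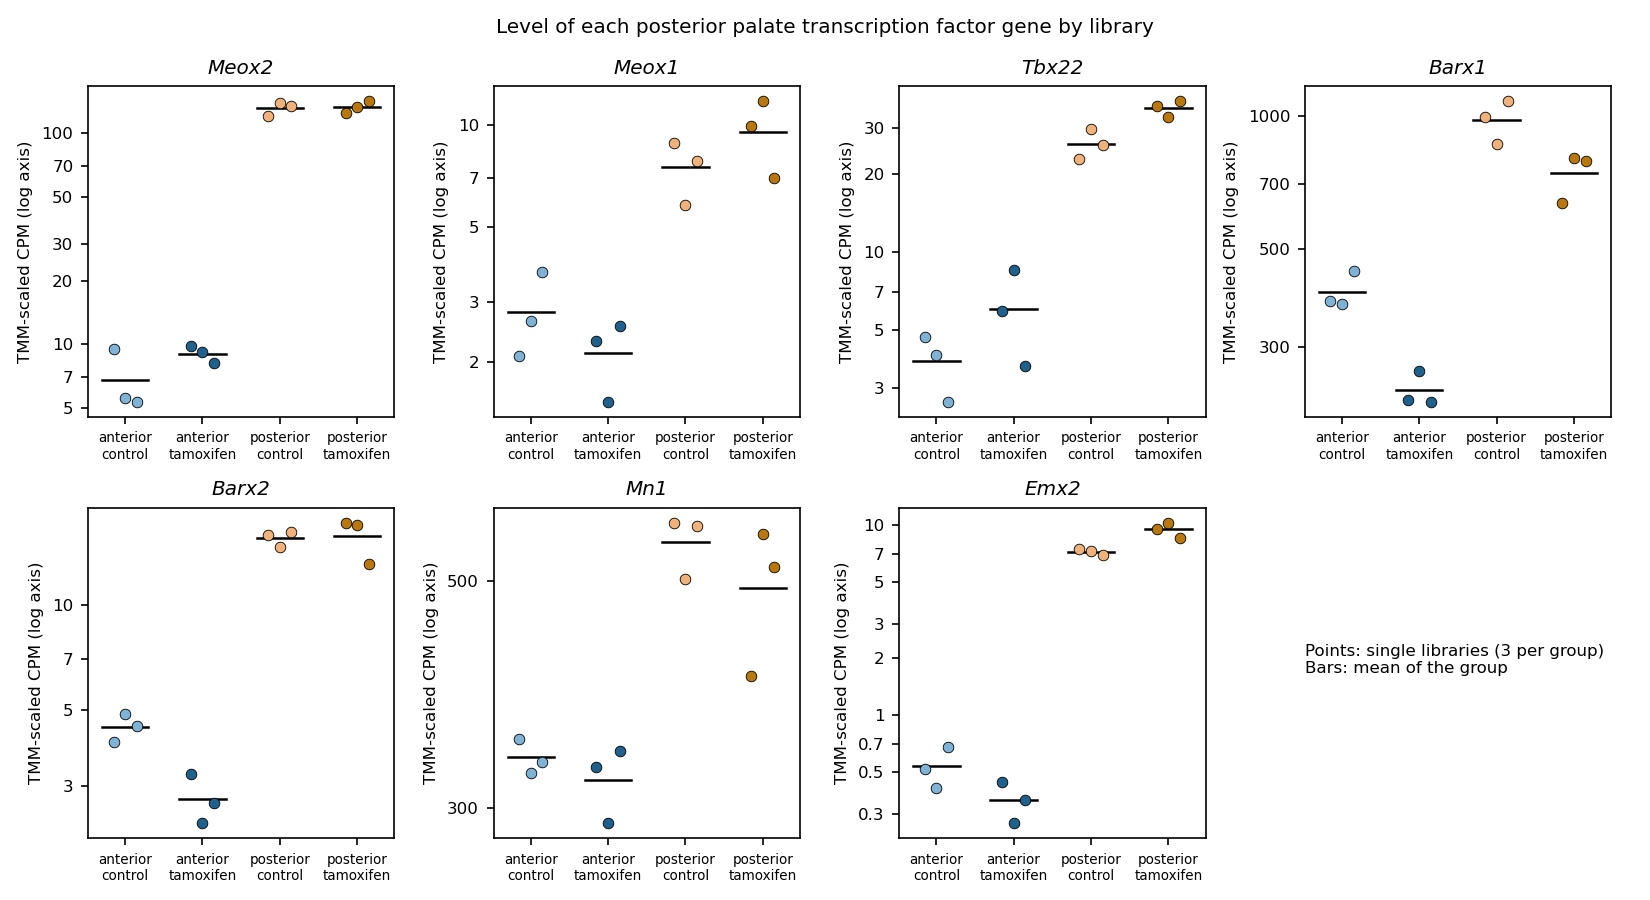
Level of each of the 7 genes in every library, as TMM-scaled CPM on log axes, for anterior control, anterior tamoxifen, posterior control and posterior tamoxifen; points are libraries (3 per group) and bars are group means. In each panel every posterior library lies above every anterior library, from Mn1 (503 to 571 against 325 to 351 CPM in controls) to Meox2 (121 to 139 against 5.34 to 9.51 CPM).

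Meox2, a homeobox gene of the mesenchyme, stood at 9.51, 5.54 and 5.34 CPM in the anterior control libraries and at 121, 139 and 134 CPM in the posterior control libraries. With tamoxifen it stood at 9.77, 9.18 and 8.12 CPM anteriorly and at 125, 133 and 142 CPM posteriorly. The posterior excess was 4.27 ± 0.17 on the log2 scale in controls (estimate ± SE, adjusted p = 7.9e-10) and 3.88 ± 0.17 under tamoxifen (adjusted p = 7.8e-10). Replicate 1 of the anterior controls lay above the other 2 and inside the range of the anterior tamoxifen libraries. The anterior tamoxifen estimate was 0.42 ± 0.17 (1.33-fold, adjusted p = 0.0560), and the posterior estimate 0.02 ± 0.15 (adjusted p = 0.916, 95% confidence interval -0.29 to 0.34). Without that replicate the anterior estimate was 0.74 with an adjusted p of 8.4e-05. DESeq2 (adjusted p = 0.0234) and limma-voom (0.0428) also called it, whereas removal of the length and GC trend described below left it at 0.38 (adjusted p = 0.157).

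Meox1, the paralogue of Meox2 in somite patterning, had a lower mean per kilobase than Meox2 in every group. Its levels were 2.08, 2.64 and 3.68 CPM in anterior control and 8.88, 5.83 and 7.85 CPM in posterior control libraries. In tamoxifen libraries they were 2.30, 1.52 and 2.55 CPM anteriorly and 9.96, 11.8 and 6.98 CPM posteriorly. The control and tamoxifen ranges overlapped in each portion. Meox1 was 2.69-fold higher posteriorly in controls (adjusted p = 4.7e-04) and 4.49-fold under tamoxifen (adjusted p = 7.3e-06). The tamoxifen estimates on the log2 scale were -0.39 ± 0.26 anteriorly (adjusted p = 0.223) and 0.35 ± 0.23 posteriorly (adjusted p = 0.275), neither called. Per kilobase of transcript, the median ratio of Meox2 to Meox1 was 1.98 in anterior control, 4.0 in anterior tamoxifen, 16.1 in posterior control and 11.8 in posterior tamoxifen libraries. The pair was thus most unequal in the posterior portion, where the ratio ranged from 10.7 to 22.5 over 6 libraries.

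Tbx22, a T-box repressor, was measured at 4.71, 4.01 and 2.65 CPM in anterior control libraries and at 22.8, 29.9 and 25.8 CPM in posterior control libraries. The anterior tamoxifen libraries had 5.93, 8.51 and 3.64 CPM, and the posterior tamoxifen libraries 36.5, 33.2 and 38.2 CPM. Anterior control and tamoxifen ranges overlapped, while every posterior tamoxifen library lay above every posterior control library. The posterior excess was 6.92-fold in controls (adjusted p = 5.4e-06) and 5.98-fold under tamoxifen (adjusted p = 6.8e-06). The tamoxifen estimate was 0.67 ± 0.27 anteriorly (1.59-fold, adjusted p = 0.0523) and 0.46 ± 0.23 posteriorly (1.37-fold, adjusted p = 0.155), and neither was called. Limma-voom (adjusted p = 0.0290) and a fit of the 6 posterior libraries alone (adjusted p = 0.00486) called the posterior difference. The anterior difference was called without replicate 1 of the anterior controls (log2 fold change 0.86, adjusted p = 0.0317), without replicate 3 of the anterior tamoxifen group (0.92, adjusted p = 0.00199), with the strict filter (adjusted p = 0.0460), and with the replicate number as a block (adjusted p = 0.0493).

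Mn1, the coactivator gene upstream of Tbx22, was high in both portions. Anterior control libraries had 351, 325 and 333 CPM and posterior control libraries 571, 503 and 566 CPM. Tamoxifen libraries had 329, 290 and 341 CPM anteriorly and 404, 556 and 517 CPM posteriorly. The posterior excess of Mn1 was the smallest of the set and was called in controls (0.70 ± 0.10 on the log2 scale, adjusted p = 8.7e-05) and under tamoxifen (0.62 ± 0.10, adjusted p = 2.9e-04). Replicate 1 of the posterior tamoxifen group was its lowest posterior library. Tamoxifen estimates were -0.07 ± 0.10 anteriorly (adjusted p = 0.595) and -0.15 ± 0.10 posteriorly (adjusted p = 0.283), with overlapping ranges. After removal of the length and GC trend the posterior value was -0.22 ± 0.06 and was called (adjusted p = 0.0142). The median ratio of Mn1 to Tbx22 per kilobase was 61.5 in anterior control, 42.3 in anterior tamoxifen, 16.7 in posterior control and 10.3 in posterior tamoxifen libraries.

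Barx1, a homeobox gene of neural crest mesenchyme, had the highest level per kilobase of the 7 in every group. It reached 380, 374 and 444 CPM in anterior control and 995, 862 and 1080 CPM in posterior control libraries. With tamoxifen it reached 227, 264 and 225 CPM anteriorly and 635, 801 and 788 CPM posteriorly. Its 4 groups did not overlap at all and stood, from low to high, in the order anterior tamoxifen, anterior control, posterior tamoxifen and posterior control. The posterior excess was 2.45-fold in controls (adjusted p = 2.1e-07) and 3.10-fold under tamoxifen (adjusted p = 1.3e-08).

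Barx2, the other Barx homeobox gene, stood at 4.04, 4.84 and 4.47 CPM in anterior control and at 15.9, 14.7 and 16.3 CPM in posterior control libraries. The tamoxifen libraries had 3.26, 2.35 and 2.68 CPM anteriorly and 17.3, 17.0 and 13.1 CPM posteriorly. Anteriorly the tamoxifen libraries all lay below the controls, and posteriorly the ranges overlapped. Barx2 was 3.52-fold higher posteriorly in controls (adjusted p = 1.0e-07) and 5.68-fold under tamoxifen (adjusted p = 2.7e-09). The median ratio of Barx1 to Barx2 per kilobase was 132 in anterior control, 118 in anterior tamoxifen, 88.1 in posterior control and 66.3 in posterior tamoxifen libraries.

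Emx2, a homeobox gene of the forebrain and the urogenital tract, had the lowest level per kilobase of the 7 in each group. Anterior control libraries had 0.520, 0.411 and 0.679 CPM and anterior tamoxifen libraries 0.445, 0.269 and 0.355 CPM, from 12 to 33 counts each. The posterior control libraries had 7.49, 7.31 and 6.94 CPM and the posterior tamoxifen libraries 9.57, 10.3 and 8.57 CPM, from 306 to 490 counts. Every posterior tamoxifen library lay above every posterior control library, and the anterior ranges overlapped. The posterior excess was 3.75 ± 0.20 on the log2 scale in controls (adjusted p = 2.0e-09) and 4.69 ± 0.21 under tamoxifen (adjusted p = 1.5e-10). The tamoxifen estimates, not called, were -0.56 ± 0.26 anteriorly (adjusted p = 0.0821) and 0.39 ± 0.16 posteriorly (1.31-fold, adjusted p = 0.0803). Posteriorly DESeq2 (adjusted p = 0.0433), limma-voom (0.0228), the 6 posterior libraries alone (0.0263) and removal of the length and GC trend (log2 fold change 0.46, adjusted p = 0.0443) called it. Anteriorly it was called without replicate 2 of the controls (-0.71, adjusted p = 0.0412) or replicate 1 of the tamoxifen group (-0.78, adjusted p = 0.0432).

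Exons of Emx2 share 264 bases with the antisense gene Emx2os in the GENCODE annotation, and whether counting used the strand is not given in the sources used here, so reads of the pair may be mixed. Emx2os stood at 0.162 ± 0.0777 CPM in anterior control, 0.108 ± 0.0810 in anterior tamoxifen, 1.56 ± 0.264 in posterior control and 1.86 ± 0.572 CPM in posterior tamoxifen libraries (SD, n = 3). It was 9.72-fold higher posteriorly in controls and its mean per kilobase lay below that of Emx2 in all 4 groups. Emx1, the paralogue of Emx2, stood at a mean of 0.131 CPM in anterior and 0.834 CPM in posterior control libraries. Forebrain and olfactory markers (8 genes) summed to between 182 and 215 CPM in anterior control and to between 117 and 133 CPM in posterior control libraries. Sox2 (means of 125 and 61.0 CPM) and Dlx1 (44.4 and 60.9 CPM) made up most of this sum and went opposite ways. Of the 8 genes, 5 were called lower and 1 higher posteriorly in controls, against 10.2% and 13.1% of all genes. The tissue source of Emx2 was not tested.

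**Figure D2:**
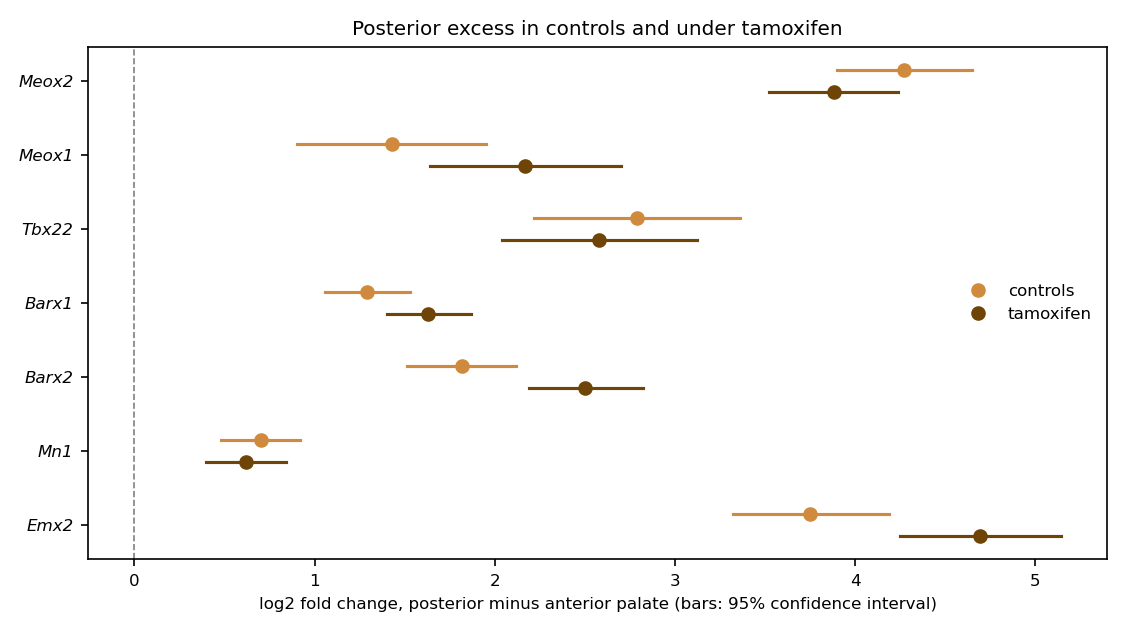
Posterior minus anterior log2 fold change of the 7 genes in controls and under tamoxifen; points are estimates of edgeR's quasi-likelihood fit and bars are 95% confidence intervals. All 14 intervals lie above 0, and the estimates range from 0.62 (Mn1, tamoxifen) to 4.69 (Emx2, tamoxifen).

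Levels were compared between genes only as CPM per kilobase of the longest annotated transcript. In posterior control libraries the order was Barx1 (700 CPM per kilobase), Mn1 (79.7), Meox2 (55.6), Barx2 (7.95), Tbx22 (5.02), Meox1 (3.37) and Emx2 (2.49), and no neighbours in this order overlapped. Among anterior controls Barx1 (285 CPM per kilobase) and Mn1 (49.0) again led, and Emx2 (0.184) was last. Meox2 there held 2.88 CPM per kilobase and overlapped with Barx2 at 2.26. Thus Meox2 stood near Mn1 in the posterior portion and near Barx2 in the anterior portion. With tamoxifen the posterior order was the same, and Mn1 (71.7 CPM per kilobase) and Meox2 (56.6) then overlapped, as did Barx2 (8.04) and Tbx22 (6.89), and Meox1 (4.30) and Emx2 (3.25). In anterior tamoxifen libraries Tbx22 (1.16 CPM per kilobase) stood above Meox1 (0.951), in reverse of the anterior controls, but their ranges overlapped.

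Tamoxifen was compared with control within each portion, the treatment named in the series title. Barx1 fell in both portions and Barx2 fell in the anterior portion, and no member was called higher. Barx1 went from 399 ± 39.1 to 239 ± 22.0 CPM anteriorly, 1.67-fold lower, and from 979 ± 110 to 741 ± 92.5 CPM posteriorly, 1.32-fold lower (SD, n = 3). Barx2 went from 4.45 ± 0.400 to 2.76 ± 0.460 CPM anteriorly, 1.60-fold lower, and from 15.7 ± 0.829 to 15.8 ± 2.33 CPM posteriorly. By edgeR's quasi-likelihood test the log2 fold change of Barx1 was -0.74 ± 0.11 anteriorly (adjusted p = 5.0e-05) and -0.40 ± 0.11 posteriorly (adjusted p = 0.0120). That of Barx2 was -0.67 ± 0.15 anteriorly (adjusted p = 0.00157) and 0.02 ± 0.13 posteriorly (adjusted p = 0.943).

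Read against all genes, these shares were near or below the background. Anteriorly 2 of 7 members were called, both lower, whereas 49.7% of all genes tested were called, 25.6% higher and 24.0% lower. Posteriorly 1 of 7 was called, lower, against 29.0% of all genes called and 11.7% called lower. Anterior control and tamoxifen libraries did not overlap for 2 members (56.5% of all genes) and posterior libraries did not overlap for 3 members, Tbx22, Barx1 and Emx2 (48.0% of all genes). The median log2 fold change of the 7 was -0.39 anteriorly, with -0.02 over all genes, and 0.02 posteriorly, with 0.02 over all genes. Without single posterior libraries the posterior background itself was lower, 16.8% without replicate 1 and 17.5% without replicate 3 of the controls and 18.8% without replicate 1 of the tamoxifen group. Leaving out replicate 3 of the posterior controls ended the posterior call of Barx1 (-0.32, adjusted p = 0.0708), and leaving out replicate 1 of the anterior controls raised the anterior count from 2 to 4.

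Both calls of Barx1 and the call of Barx2 depended on how transcript length and base composition were treated. Over 12688 genes, the anterior tamoxifen fold change correlated with the length of the transcript (Spearman rho = 0.59) and inversely with its GC content (rho = -0.59), and posteriorly rho was 0.56 and -0.48. Barx1 has a short GC-rich transcript (1399 bases, 65.0% GC), Barx2 follows (1968 bases, 57.2%), and Tbx22 has a long AT-rich transcript (5217 bases, 35.3%). The trend fitted over all genes amounted, at the length and GC of Barx1, to -0.76 anteriorly and -0.36 posteriorly on the log2 scale. For Barx2 it amounted to -0.46 and -0.23, and for Tbx22 to 0.50 and 0.30. With the trend removed, Barx1 stood at 0.03 ± 0.10 anteriorly (adjusted p = 0.863) and -0.04 ± 0.10 posteriorly (adjusted p = 0.809), and Barx2 at -0.22 ± 0.15 anteriorly (adjusted p = 0.272). Tbx22 then stood at 0.16 ± 0.20 anteriorly (adjusted p = 0.597) and 0.17 ± 0.17 posteriorly (adjusted p = 0.537). Whether the trend arose in the tissue or in the preparation of the libraries was not tested. The trend was smaller at the length and GC of Meox2 (0.04 and 0.03) and of Mn1 (-0.03 and 0.06), although the posterior value of Mn1 was called only with it removed. The posterior excess of all 7 genes was called with the trend removed, in both conditions.

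**Figure D3:**
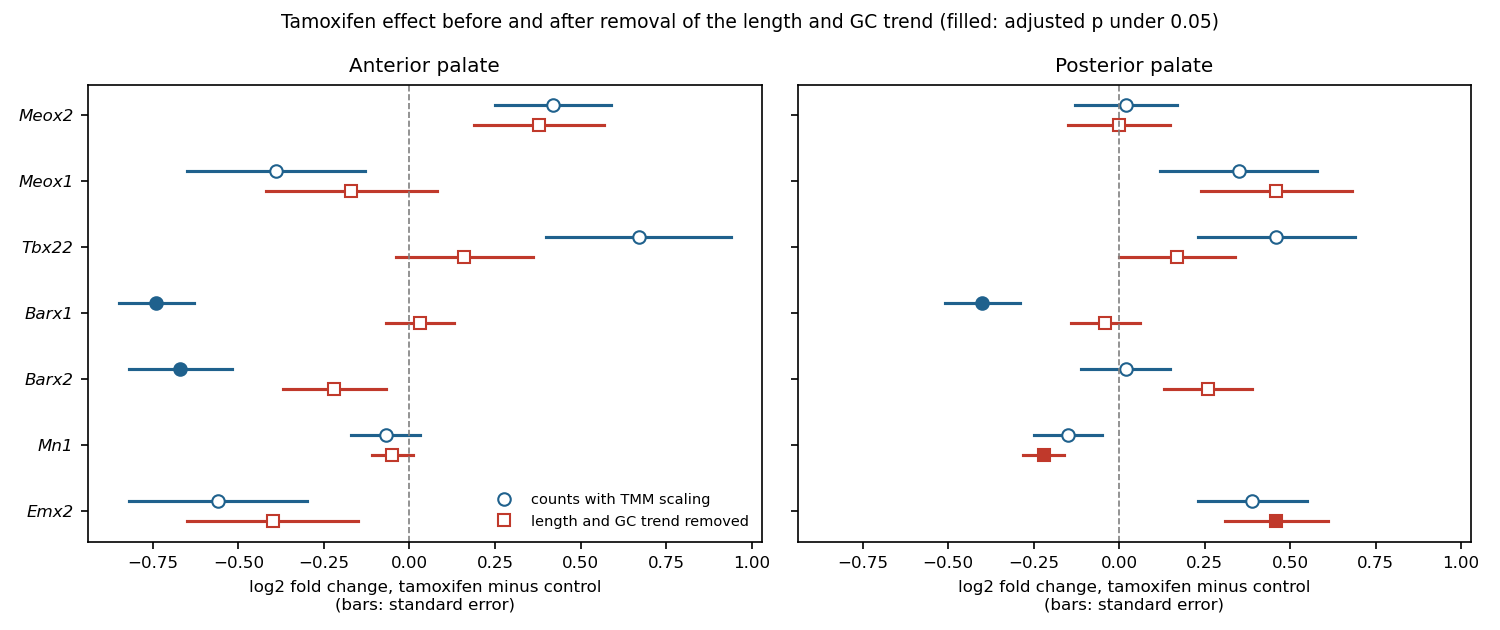
Tamoxifen minus control log2 fold change of the 7 genes in the anterior (left) and posterior (right) palate, from the TMM-scaled counts (circles) and after removal of the length and GC trend (squares); bars are standard errors and filled symbols have an adjusted p under 0.05. Barx1 moves from -0.74 to 0.03 anteriorly and from -0.40 to -0.04 posteriorly, and Mn1 (-0.22) and Emx2 (0.46) are filled after removal in the posterior palate.

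The tamoxifen effect was not shown to differ between the portions for any member. The test of the difference (posterior minus anterior effect) called 0 of the 7 members and 0% of all genes by edgeR. Its unadjusted p was under 0.05 for 4 of the 7 members, against 13.2% of all genes. With the length and GC trend removed it was so for 3 members, against 10.8% of all genes. DESeq2 called 160 genes, 1.0% of those tested, and limma-voom 0, with 0 members in either. The largest differences belonged to Emx2 (0.94 ± 0.30 on the log2 scale, adjusted p = 0.269), Meox1 (0.74 ± 0.35, adjusted p = 0.375) and Barx2 (0.69 ± 0.20, adjusted p = 0.235). Barx1 had 0.34 ± 0.15 (adjusted p = 0.363), Meox2 -0.39 ± 0.22 (adjusted p = 0.461), Tbx22 -0.21 ± 0.35 (adjusted p = 0.822) and Mn1 -0.08 ± 0.15 (adjusted p = 0.837). The same quantity is the difference between the posterior excess under tamoxifen and in controls, which share no library. For Emx2 these were 4.69 and 3.75 on the log2 scale, and for Barx2 5.68-fold and 3.52-fold. The fitted length and GC trend amounted, for the difference between the portions, to 0.40 for Barx1, 0.22 for Barx2 and -0.20 for Tbx22. For Meox1 it amounted to 0.11 and for Emx2 to 0.09.

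The genes whose log2 CPM was most like that of each member over the 12 libraries differed from member to member. These correlations (Pearson r, among 11506 or 11507 genes) are set mostly by the gap between anterior and posterior libraries and are a description. Nearest to Meox2 were Cdh18 (r = 0.996), Sim2 (0.994) and Prkce (0.993). Sim2, a transcription factor gene, went from 56.9 CPM in anterior to 541 CPM in posterior control libraries and stood at 60.3 and 535 CPM with tamoxifen. Tbx22 was nearest to Dach1 (0.987), Gas2 (0.986) and Ppfia2 (0.985), and Mn1 to Adamts7 (0.985), Sardh (0.981) and Nr2f1 (0.981). Barx1 was nearest to Lsp1 (0.990), Foxc2 (0.984) and Cygb (0.983), each of which also had lower means with tamoxifen than in controls in both portions. Foxc2, a forkhead gene, had means of 8.12 and 3.22 CPM anteriorly and 59.3 and 46.8 CPM posteriorly.

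Emx2 was most like Tnnt1 (r = 0.996), Myl4 (0.996) and Unc45b (0.994), which encode a troponin, a myosin light chain and a myosin chaperone. Barx2 was most like Fgfr4 (0.994), Jph2 (0.994) and Hic1 (0.990), and Fgfr4 is a receptor of muscle precursors. Meox1 was most like Klhl21 (0.988), Cryab (0.982) and Acta2 (0.980), which encodes smooth muscle actin. In the skeletal muscle list 20 of 21 tested genes were called higher posteriorly and 0 lower, in controls and under tamoxifen, with median log2 fold changes of 4.90 and 5.91. With tamoxifen 1 was called higher and 6 lower anteriorly, and 5 higher and 0 lower posteriorly. Over all genes the shares were 25.6% higher and 24.0% lower anteriorly, and 17.3% and 11.7% posteriorly. The muscle counts and sums were taken with the length and GC trend left in, and the part of that trend in them was not tested. The 6 posterior libraries stood in the same order by Emx2 and by the muscle sum, from 6.94 and 961 CPM in replicate 3 of the controls to 10.3 and 1625 CPM in replicate 2 of the tamoxifen group. The order by Meox1, Barx2 and Tbx22 differed from that of the muscle sum. Replicate 2 of the controls was lowest for Meox1 (5.83 CPM), replicate 3 of the tamoxifen group was lowest for Barx2 (13.1 CPM), and replicate 2 of the tamoxifen group, with the highest muscle sum, had the lowest Tbx22 of its group (33.2 CPM). In the anterior libraries the order by Emx2 differed from that of the muscle sum. Replicate 3 of the anterior controls had the lowest muscle sum of its group (20.3 CPM) and the highest Emx2 (0.679 CPM). Replicate 2 of the anterior tamoxifen group had the highest muscle sum of its group (33.8 CPM) and the lowest Emx2 (0.269 CPM). The part of muscle content in the levels of Emx2, Barx2 and Meox1 was not tested.

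**Figure D4:**
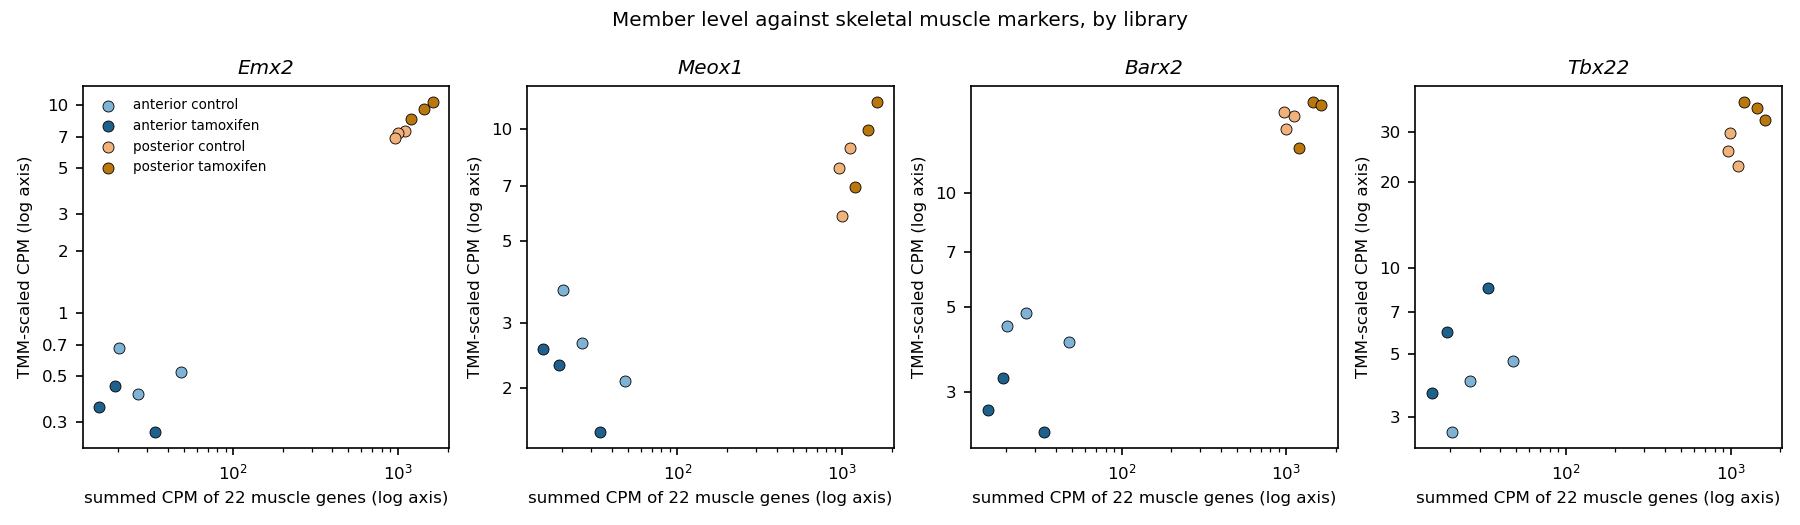
Level of Emx2, Meox1, Barx2 and Tbx22 (TMM-scaled CPM, log axis) against the summed CPM of 22 skeletal muscle genes (log axis); each point is a library, coloured by group. Anterior libraries lie between 15.4 and 48.2 CPM of muscle genes and posterior libraries between 961 and 1625 CPM. Within the posterior libraries Emx2 goes from 6.94 to 10.3 CPM in the order of the muscle sum, and within the anterior libraries it does not follow that order.

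Other genes of the palate's front-to-back pattern were taken from lists and set beside the 7. Like the members, the lists were chosen with earlier results of these libraries known, so their regional counts are a description. Their tamoxifen values come from counts with the length and GC trend left in, and the part of that trend in them was not tested. Of 14 further genes listed as posterior, 8 were called higher and 1 lower posteriorly in controls, and 9 and 0 under tamoxifen. Their median log2 fold change was 1.31 and 1.26. They included Wnt11, a Wnt ligand (4.61-fold higher in controls), Col25a1, a transmembrane collagen gene (5.34-fold), and Tgfb2, a growth factor gene (2.42-fold). Of 16 genes listed as anterior, 12 were called lower posteriorly and 1 higher, in each condition. The exception was Msx2, 3.84-fold higher posteriorly in controls, and Six3 (16.4-fold), Pax3 (10.5-fold) and Inhba (3.70-fold) were among those higher anteriorly. With tamoxifen 5 of the 14 posterior genes were called higher and 3 lower anteriorly, and 6 higher and 0 lower posteriorly. Over all genes tested, 25.6% were called higher and 24.0% lower anteriorly with tamoxifen, and 17.3% and 11.7% posteriorly. The same shares apply to the tamoxifen counts of the lists below. Tgfb2 (1.53-fold anteriorly, 1.37-fold posteriorly) and Col25a1 (2.13-fold and 1.47-fold) rose in both portions, and Wnt11 fell 1.60-fold anteriorly.

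A list of upstream regulators and general palate factors, 20 genes in all, was mostly higher anteriorly. Of these, 12 were called lower and 2 higher posteriorly in controls, and 12 and 3 under tamoxifen. Whether each acts on the 7 genes was not tested. Foxf1, a forkhead gene downstream of hedgehog signalling, was 3.78-fold and Tfap2a, a neural crest factor gene, 3.86-fold higher anteriorly in controls, and Pax9 was 2.03-fold higher posteriorly. With tamoxifen 6 were called higher and 7 lower anteriorly, and 2 higher and 3 lower posteriorly. Ptch1, the hedgehog receptor gene (1.90-fold), Prrx1 (1.67-fold) and Gli3 (1.65-fold) rose anteriorly, while Gli1, another hedgehog pathway gene, fell 1.70-fold. These values, and the tamoxifen values of the target genes below, were also taken without removal of the length and GC trend. Of 19 tested genes reported as targets or partners of the 7, 7 were called higher and 2 lower posteriorly in controls, and 7 and 3 under tamoxifen. Pax3, also on the anterior list, had the smallest adjusted p of these genes in both conditions. It was 10.5-fold lower posteriorly in controls and 14.6-fold lower under tamoxifen. Pax1, a sclerotome gene downstream of Meox factors, was 7.79-fold higher posteriorly in controls, and Nkx3-2 stood at 9.38 ± 0.902 against 0.181 ± 0.251 CPM (SD, n = 3). Cdkn1a, a cell cycle inhibitor gene reported as a Meox2 target, was 2.26-fold higher posteriorly in controls and 3.59-fold under tamoxifen. With tamoxifen 5 targets or partners were called higher and 4 lower anteriorly, and 4 higher and 0 lower posteriorly. Ccnd2, a D-type cyclin gene (1.77-fold anteriorly, 1.31-fold posteriorly), and Ep300, a coactivator gene (1.92-fold and 1.49-fold), rose in both portions.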

How the data were processed

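The authors deposited 1 file per library with raw counts per gene symbol, as whole numbers that were not normalized. HISAT2, StringTie and build mm9 are named per the submitters' processing notes. No version, counting program, gene annotation or strand setting is given in the sources used here. Between 57.1 and 60.1% of the counts from 1 to 100 were even, so both mates of a pair may have been counted, and precision may be lower than the totals (39.4 to 73.0 M per library) imply. Each pair of replicates differed beyond counting noise, with a chi-square of 10.3 to 50.0 per degree of freedom.

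Counts were tested with edgeR 4.0.16 (R 4.3.3). The steps were filterByExpr on the groups (15958 genes kept), TMM scaling, a quasi-likelihood fit (robust) of all 12 libraries with a mean for each group and 8 residual degrees of freedom, and Benjamini-Hochberg adjustment over all genes tested (threshold 0.05). The scripts were tested on simulated data. The 5 contrasts were tamoxifen against control in each portion, their difference, and posterior against anterior in each condition. An exact test of 3 against 3 values cannot go below p = 0.1, so levels have no test of their own. Alternatives were DESeq2 1.42.0, limma-voom (limma 3.58.1), other scalings and filters, the 6 libraries of a comparison, the replicate number as a block, leaving out each library, and removal of a length and GC trend. The trend was fitted per library with natural splines (4 degrees of freedom each) to genes whose log2 CPM averaged above 1, and entered as an offset. Length and GC came from the longest GENCODE M21 transcript per symbol. A transcript was found for 23348 of the 24391 symbols by the symbol itself and for 678 more by an earlier name. That annotation is on a newer build than the counts, so none of its coordinates are given.

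All 7 members are named in each comparison. Also named were the 3 genes most like each member (Pearson correlation of log2 CPM, prior count 2, mean of at least 5 CPM), up to 3 genes per list and comparison with the smallest adjusted p (their values in other comparisons may be given beside), and Shox2. Msx2, Pax9, Gli1, Emx1 and Emx2os were singled out after their values were seen. The members and lists were chosen with earlier results of these data known.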

Additional observations from a re-analysis of the deposited data

How the results depend on the processing

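The posterior excess of all 7 genes was called in controls and under tamoxifen under every alternative run, and the difference of the tamoxifen effects was called for 0 of 7 under every one. Of 763 recomputed values, 718 kept direction and side of the threshold. With the direction kept, 5 lost a call and 17 gained one, and 23 changed sign. The sign changes include anterior Barx1 with the trend removed, which also lost its call. Anteriorly, 2 members were called under tamoxifen; 0 were called with the length and GC trend removed, with or without the replicate block, and 2 to 4 when single libraries were left out (4 without replicate 1 of the anterior controls). The share of all genes called was 49.7%, 32.8% with the trend removed (5230 against 7924 genes), 31.5% with the block as well, and 40.5 to 49.3% with single libraries left out. Posteriorly, 1 was called. DESeq2 called 2, limma-voom 3, the 6 libraries alone 3 and trend removal 2, but trend removal with the replicate block only 1. Single libraries left out gave 0 to 1 (0 without replicate 3 of the posterior controls). Over all genes the shares were 29.0%, 32.4% (DESeq2), 29.3% (limma-voom), 36.4% (6 libraries) and 16.8 to 33.9% (single libraries left out). With the trend removed the share was 17.9% (1231 genes higher and 1621 lower, against 2762 and 1863), and 17.1% with the block as well. The cause of these differences was not tested.

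Values that changed sign stood near 0 after the change. Barx1 stood at 0.03 anteriorly with the trend removed (0.02 with the block as well), not called, against -0.74, called, with the trend left in. Its difference between portions stood at -0.07 and -0.06. That of Tbx22 stood at 0.01 and 0.03. For the posterior tamoxifen effect, upper-quartile scaling gave -0.0002 for Meox2 and -0.01 for Barx2, the strict filter (at least 1 CPM in 3 libraries) -0.01 for Barx2 and the 6 libraries alone -0.0029. With single libraries left out, the posterior effect ranged from -0.07 to 0.13 for Barx2 and from -0.03 to 0.07 for Meox2, the anterior effect of Mn1 from -0.12 to 0.0007, and the difference between portions from -0.48 to 0.07 for Tbx22 and from -0.18 to 0.02 for Mn1.

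No label says that the replicate numbers pair the samples. Deviations of same-numbered libraries from their group means had r from -0.20 to 0.34, and those of other pairs from -0.46 to 0.39. These ranges overlap and rest on 3 libraries per group, so they cannot decide whether the numbers pair the samples. With the number as a block, 3 members were called anteriorly (Barx1, Barx2 and Tbx22), 1 posteriorly, 0 for the difference and 7 for each posterior excess, against 48.9% of all genes anteriorly and 28.6% posteriorly. Depth limits Emx2 anteriorly (12 to 33 counts per library), and 3 libraries per group limit the others: the 95% confidence interval of the anterior tamoxifen effect was -0.29 to 0.15 for Mn1 and 0.05 to 0.78 for Meox2 on the log2 scale.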
